A study of Danio rerio with 6 samples.

Results

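The genes examined here encode carriers that move neurotransmitters and related amino acids across the plasma membrane or into synaptic vesicles. The set was chosen with earlier results of these data known. Members are all genes in the count files whose symbol begins with slc1a, slc6a, slc17a, slc18a or slc32a followed by a digit. This rule found 42 genes of the 15336 listed, of which 39 had enough reads to be tested. Of the 3 others, *slc1a9* had 0 counts in every library, where 3 counts would correspond to 0.155 to 0.209 CPM, the read count of a gene scaled to the size of its library, *slc6a14* had 0 to 8 counts and *slc6a4b* had 3 to 9 counts.

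After release, a transmitter is taken up again by sodium-driven carriers, the slc1 family for glutamate and the slc6 family for GABA, glycine, dopamine and serotonin. Inside the terminal, a proton gradient drives the refilling of vesicles, through slc17 carriers for glutamate and ATP, slc18 carriers for monoamines and acetylcholine, and the slc32 carrier for GABA and glycine. Because a neuron uses the carrier of its own transmitter, these genes are widely used to tell glutamatergic, GABAergic, cholinergic and monoaminergic neurons apart. Other members of the slc1 and slc6 families serve amino acid absorption in kidney and gut, or supply taurine and creatine to many tissues.

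Whole 6 dpf zebrafish larvae of the wild-type TL strain (TL control, 3 libraries) were compared with age-matched larvae of the same strain that carry a TALEN-induced frameshift deletion in the pannexin channel gene *panx1a* (*panx1a*-/-, 3 libraries), and no larva was treated. The mutant line descends from a single founder. The labels do not say whether libraries of a genotype came from separate clutches or how many larvae were pooled, so the p-values measure only the spread between these libraries, which may be technical. Each library held between 13054759 and 21472044 reads on genes, and the targeted gene was covered by 110 to 147 reads per TL library and 13 to 22 per *panx1a*-/- library. Reads outside annotated genes made up 30.2% to 42.9% of uniquely aligned reads in the TL controls, with the highest share in TL replicate 1, and 48.4% to 59.4% in *panx1a*-/- libraries. Tissue markers also differed. Of 12 tested neuron markers, 5 were called higher in *panx1a*-/- larvae, and 3 had a log2 fold change below 0. The summed level of the 12 was 2146 to 4432 CPM in the TL controls and 4895 to 7363 CPM in *panx1a*-/- larvae. The largest part of that sum, *stmn1b*, was not called. Over all genes tested, 9.88% were called higher and 11.8% lower. Of 12 photoreceptor markers, 11 were called higher (3600 to 4257 against 5360 to 11989 CPM in sum). Markers called lower were 6 of 9 for fast muscle (26685 to 75531 against 11583 to 23515 CPM), 7 of 8 for exocrine pancreas (1676 to 10681 against 697 to 843 CPM) and 7 of 8 for epidermis (16658 to 42113 against 2113 to 6600 CPM). All tested markers of these 5 lists had counts in every library. Markers of retinal bipolar or amacrine cells were mixed, with 4 of 9 tested called higher and 2 lower. In whole larvae, fewer cells of a type and less RNA per cell cannot be told apart, and the part of these tissue differences in the results that follow was not tested.

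Transporter genes moved in both directions in *panx1a*-/- larvae, and the direction followed neither family nor substrate throughout. At a Benjamini-Hochberg adjusted p below 0.05 in edgeR's quasi-likelihood test, 5 of the 39 genes were called higher, or 12.8%, against 9.88% of all genes tested. Lower calls were made for 9 genes, or 23.1%, against 11.8% of all genes. Together, 14 genes were called, or 35.9% against 21.6%. The higher genes included *slc6a17*, *slc1a8b*, *slc1a2a* and *slc18a3a*, and the 9 lower genes were *slc17a6a*, *slc6a22.2*, *slc6a18*, *slc6a4a*, *slc17a8*, *slc1a5*, *slc17a6b*, *slc17a5* and *slc1a3a*. Calls in the text are those of this test unless another is named, and not every called gene is reported here. Each of the 14 had an adjusted p between 0.0262 and 0.0438, close to the threshold, and none had an unadjusted p below 0.0001. Levels were fully separate between genotypes in 19 of the 39 genes (48.7%), against 47.5% of all genes tested. At an unadjusted p below 0.05 there were 21 genes, against 43.7% of all genes, and 14 genes had a log2 fold change above 0, against 46.8% of all genes. The median log2 fold change was −0.38 over the transporter genes and −0.06 over all genes, and the median size of the change regardless of sign was 0.93 and 0.50. All levels below are TMM-normalized CPM, given for replicates 1, 2 and 3 in that order.

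**Figure D1:**
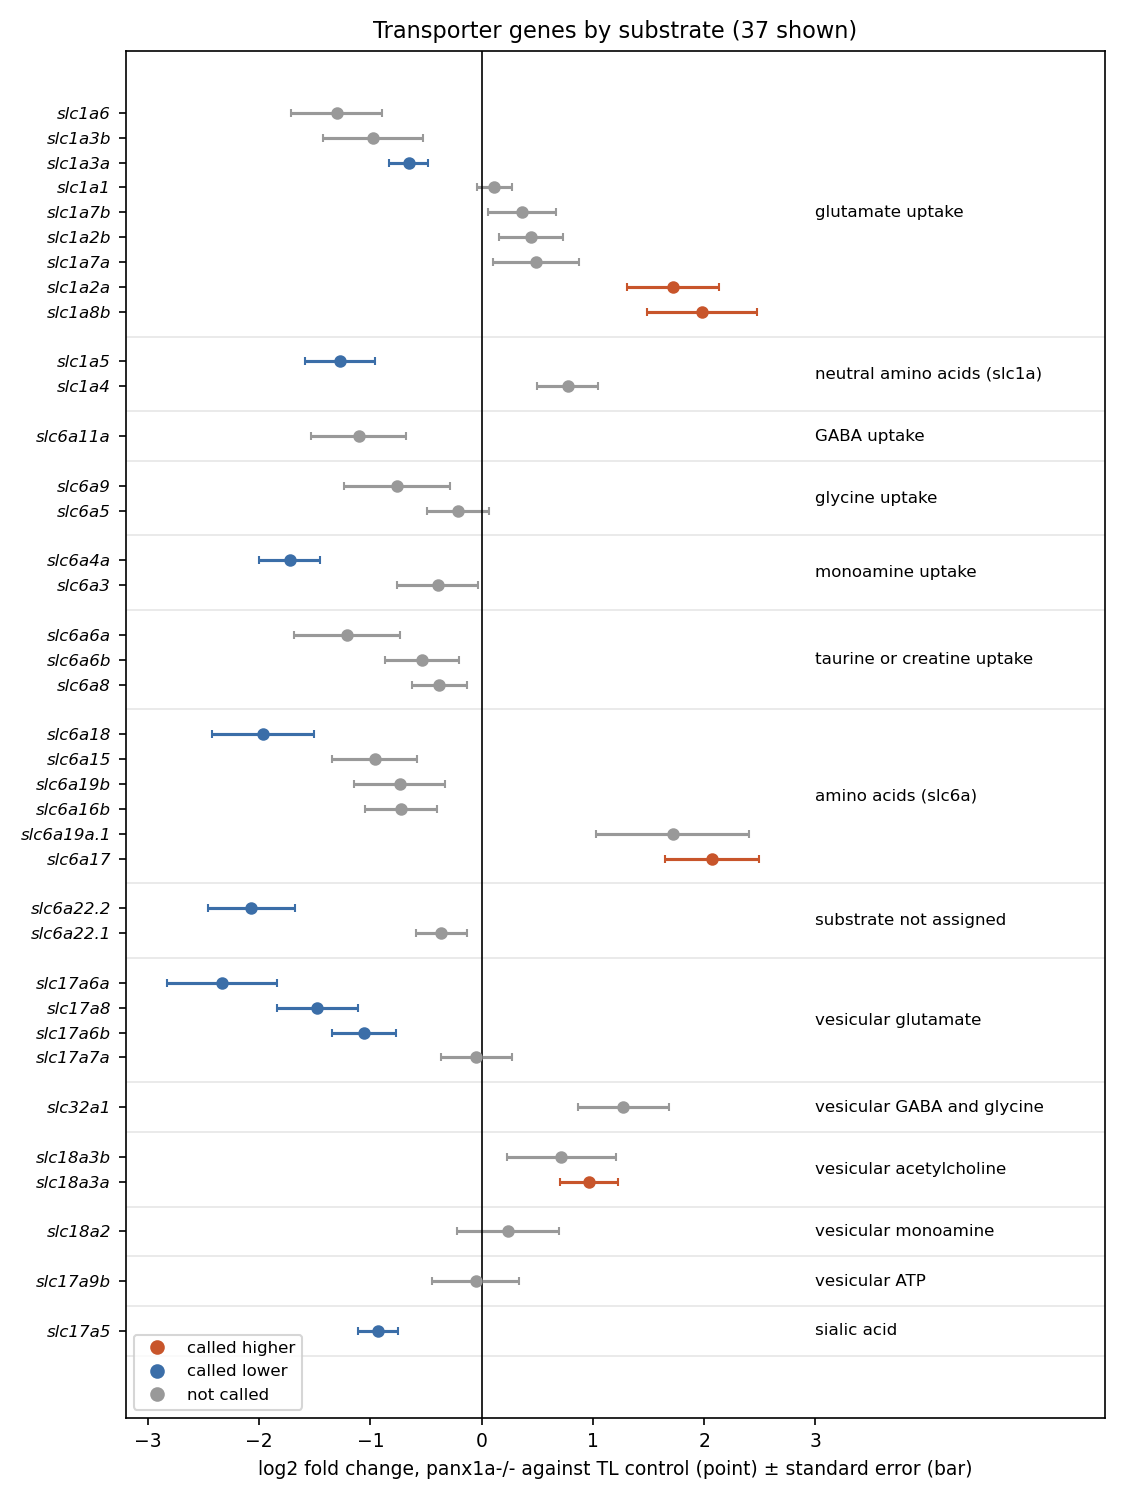
Log2 fold change of 37 tested transporter genes in *panx1a*-/- larvae against TL controls (x axis) with its standard error (bars), grouped by substrate (y axis). Red points are called higher (4 genes), blue points lower (9 genes) and grey points are not called (24 genes). Vesicular glutamate genes lie below 0, between −2.33 and −0.05, while the 2 vesicular acetylcholine genes and *slc32a1* lie above 0.

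Of the 4 vesicular glutamate transporter genes, 3 were called lower in *panx1a*-/- larvae, against 11.8% of all genes tested. *slc17a6a*, one of the pair of VGLUT2 genes that load glutamate in many excitatory neurons, stood at 5.19, 1.99 and 6.56 CPM in the TL controls and at 0.580, 1.22 and 0.904 CPM in *panx1a*-/- larvae. The genotypes did not overlap, although TL replicate 2 was well below the other TL libraries. The level was 5.04-fold lower (log2 fold change −2.33, standard error 0.49, adjusted p = 0.0298). The other VGLUT2 gene, *slc17a6b*, stood at 9.78, 5.32 and 10.6 CPM and at 3.77, 4.52 and 4.03 CPM, again with TL replicate 2 as the lowest control (log2 fold change −1.06, standard error 0.29, adjusted p = 0.0407). With limma-voom, *slc17a6b* was not called (adjusted p = 0.0504). *slc17a8*, the VGLUT3 gene, which zebrafish hair cells need for transmission, stood at 1.64, 1.51 and 1.65 CPM and at 0.348, 0.797 and 0.556 CPM (log2 fold change −1.48, standard error 0.37, adjusted p = 0.0352). The controls lay close together here, but the counts were low, at 25 to 32 reads in TL libraries and 6 to 15 in *panx1a*-/- libraries. *slc17a7a*, a VGLUT1 gene, was not called. It stood at 7.21, 7.25 and 11.7 CPM and at 11.8, 5.63 and 8 CPM, and the genotypes overlapped (log2 fold change −0.05, standard error 0.32, adjusted p = 0.920).

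Carriers of inhibitory and cholinergic vesicles stood on the other side of 0. *slc32a1*, the vesicular carrier shared by GABA and glycine neurons, had 144, 48.3 and 78.4 CPM in the TL controls and 209, 155 and 291 CPM in *panx1a*-/- larvae. Every *panx1a*-/- library was above every control, though TL replicate 1 and *panx1a*-/- replicate 2 nearly met, and the change missed the threshold (log2 fold change 1.27, standard error 0.41, adjusted p = 0.0591). DESeq2 called it, with an adjusted p of 0.00999, as did edgeR's exact test, with 0.0170, while limma-voom did not, with 0.0505. *slc18a3a*, which loads acetylcholine in motor neurons and other cholinergic cells, was called higher. Its levels were 37.2, 20.9 and 26.1 CPM against 65.8, 40.2 and 58.3 CPM (log2 fold change 0.96, standard error 0.26, adjusted p = 0.0409). Its paralog *slc18a3b* stood at 2.19, 0.665 and 1.34 CPM against 1.80, 1.59 and 3.62 CPM, with overlapping genotypes (log2 fold change 0.72, standard error 0.49, adjusted p = 0.278).

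The vesicular carriers of monoamines and ATP were not called. *slc18a2* fills vesicles with dopamine, serotonin and noradrenaline, and the study reported it as upregulated in mutants by RT-qPCR. Here it was covered by only 6, 5 and 13 reads in wild type and 10, 8 and 8 reads in mutants. That is 0.328, 0.302 and 0.671 CPM against 0.580, 0.425 and 0.556 CPM, and the standard error of 0.46 exceeded the log2 fold change of 0.23 (adjusted p = 0.711). No difference was detected at this depth, and how large a change could have been detected was not tested. *slc17a9b*, a vesicular nucleotide carrier gene and thus a route of ATP release separate from pannexin channels, stood at 2.57, 3.26 and 3.92 CPM and at 2.09, 5.10 and 2.16 CPM. The 2 lowest and the highest values all came from *panx1a*-/- larvae (log2 fold change −0.05, standard error 0.39, adjusted p = 0.926).

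Read shares within this set of carriers do not depend on how libraries are scaled to each other. The 9 vesicular genes of glutamate, GABA and glycine, acetylcholine, monoamines and ATP held 1481 to 5307 reads per library. Glutamate carriers took 11.3%, 18% and 21.6% of them in the TL controls and 5.56%, 5.68% and 3.66% in *panx1a*-/- larvae (17% ± 5.22 against 4.97% ± 1.14, SD, n = 3 each), and the groups did not overlap. Levels of 47.5% of all genes tested did not overlap either. The shares are parts of the same total, so more *slc32a1* reads alone would lower the glutamate share. Unscaled, the glutamate carriers held 436, 266 and 591 reads against 284, 229 and 194, and these counts overlapped. *slc32a1* took 68.5%, 54.0% and 55.6% against 70.7%, 72.2% and 78.8%, with TL replicate 1 close to the *panx1a*-/- libraries. The acetylcholine share overlapped between genotypes, at 20.8% ± 2.90 and 19.7% ± 3.04 (SD, n = 3 each). For each read on a vesicular glutamate gene there were 6.04, 3.00 and 2.57 reads on *slc32a1* in the TL controls and 12.7, 12.7 and 21.6 in *panx1a*-/- larvae. These ratios compare libraries, not the abundance of one transcript with another, because reads were not scaled by transcript length.

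**Figure D2:**
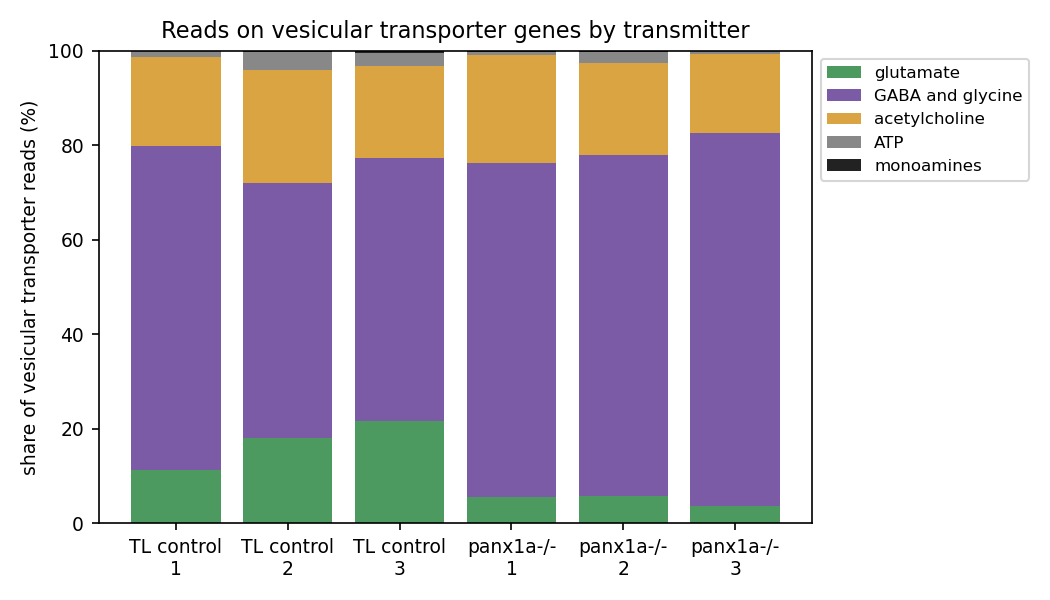
Share of vesicular transporter reads (y axis, percent) taken by each transmitter's carriers in each library (x axis, 3 TL controls and 3 *panx1a*-/- libraries). The glutamate share lies between 11.3% and 21.6% in the TL controls and between 3.66% and 5.68% in *panx1a*-/- larvae.

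Not all GABA uptake genes are reported here, so the group as a whole is not described. *slc6a11a*, of the GAT3 type found on glia in mammals, stood at 2.62, 2.60 and 2.58 CPM against 0.580, 2.02 and 0.973 CPM. Its genotypes did not overlap, but *panx1a*-/- replicate 2 was near the controls and the gene was not called (log2 fold change −1.11, standard error 0.43, adjusted p = 0.0855). DESeq2 did not call it either (adjusted p = 0.0641), while edgeR's exact test did (adjusted p = 0.0429).

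Some levels followed the share of reads outside annotated genes. Ordered by that share, the libraries run from TL replicate 2 through TL replicates 3 and 1 to *panx1a*-/- replicates 2, 1 and 3, and *slc32a1* and *slc6a17* increased in exactly this order. Such an order was shared by 3 of the 39 transporter genes (7.69%) and by 5.74% of all genes tested, with 0 transporter genes and 2.91% of all genes in the reverse order. With the share as a covariate in edgeR's quasi-likelihood test, the log2 fold change was −0.32 for *slc32a1* and 0.31 for *slc6a17* (adjusted p = 0.999 each). For *slc6a4a*, which did not follow this order, it was −1.14, also without a call (adjusted p = 0.999). In that fit 0 of the 39 transporter genes were called, 3 had an unadjusted p below 0.05, and 1 gene was called among all genes tested. The share did not overlap between the genotypes, and their parts in the change cannot be told apart.

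**Figure D3:**
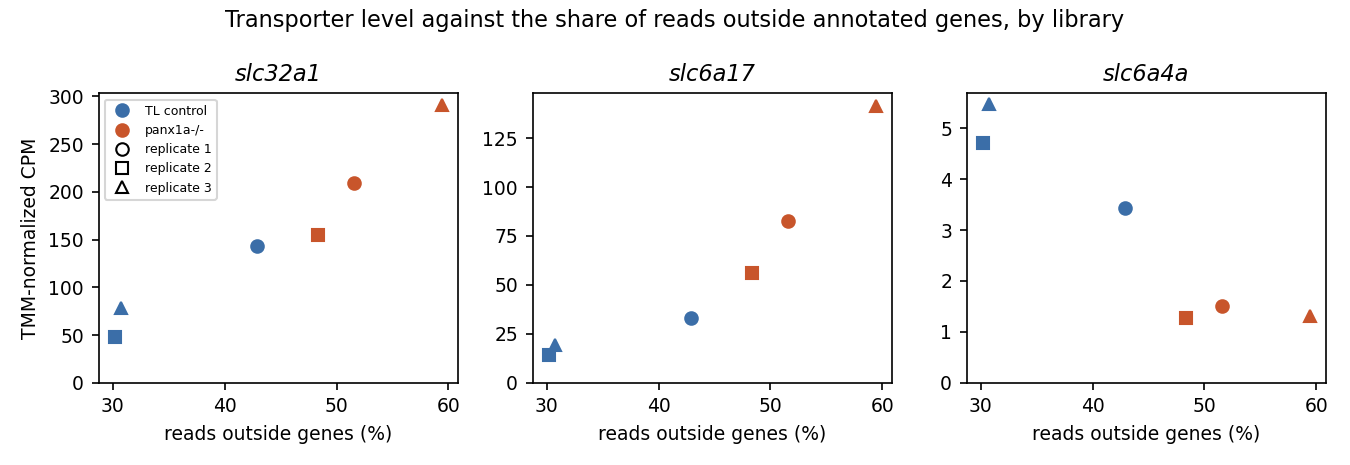
Level of *slc32a1*, *slc6a17* and *slc6a4a* (y axes, TMM-normalized CPM) against the share of uniquely aligned reads outside annotated genes (x axes, percent), with 1 point per library. *slc32a1* and *slc6a17* rise with the share within each genotype as well as between genotypes, whereas *slc6a4a* lies between 1.28 and 1.51 CPM in *panx1a*-/- libraries and between 3.44 and 5.47 CPM in the controls, lowest in TL replicate 1.

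Glycine uptake genes were not called by any of the tests run, and neither had an unadjusted p below 0.05 in edgeR's quasi-likelihood test. *slc6a5*, the carrier of glycinergic neurons, stood at 3.63 ± 0.604 CPM in the TL controls and 3.14 ± 0.811 CPM in *panx1a*-/- larvae (SD, n = 3 each). *slc6a9*, which in mammals acts largely in glia, stood at 3.77 ± 1.70 and 2.25 ± 1.13 CPM (SD, n = 3 each).

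Of 9 tested glutamate uptake genes, 2 were called higher and 1 lower, together 33.3% against 21.6% of all genes tested. Calls in both directions were also made over all genes, at 9.88% higher and 11.8% lower. *slc1a8b*, an uptake gene that RefSeq also lists under the earlier symbol *slc1a7l*, rose from 7.48, 4.59 and 3.30 CPM to 34.0, 9.78 and 17 CPM (log2 fold change 1.98, standard error 0.49, adjusted p = 0.0370). The *panx1a*-/- libraries spread widely, and replicate 2 was close to TL replicate 1. *slc1a2a*, an EAAT2 gene, rose from 5.46, 2.36 and 2.99 CPM to 17.6, 7.33 and 10.8 CPM (log2 fold change 1.72, standard error 0.41, adjusted p = 0.0345). The other EAAT2 gene, *slc1a2b*, held 4710 to 10493 reads per library. It stood at 538, 285 and 480 CPM against 608, 458 and 700 CPM, with overlap between the genotypes (log2 fold change 0.44, standard error 0.29, adjusted p = 0.261).

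The EAAT1 genes are expressed in radial glia and Müller glia. *slc1a3a* fell from 37.9, 44.1 and 50.3 CPM to 24.2, 32.1 and 27.5 CPM (log2 fold change −0.66, standard error 0.18, adjusted p = 0.0394), the smallest change among the genes called. *slc1a3b* gave a log2 fold change of −0.97 with wide spread in the controls (7.55 ± 4.18 against 3.84 ± 0.903 CPM, SD, n = 3 each; adjusted p = 0.132). *slc1a6*, an EAAT4 gene known from Purkinje cells in mammals, stood at 3.17, 1.87 and 5.11 CPM against 0.986, 1.54 and 1.60 CPM. Its genotypes did not overlap and it just missed the threshold (log2 fold change −1.30, standard error 0.41, adjusted p = 0.0542). DESeq2 called it lower (adjusted p = 0.0256), as did edgeR's exact test (adjusted p = 0.0194), while limma-voom did not (adjusted p = 0.0717). Glial markers as a list went the other way, with 2 of 8 tested called higher and a median log2 fold change of 0.33. Their summed level was 2020 to 2778 CPM in the TL controls and 3081 to 3858 CPM in *panx1a*-/- larvae. In that sum *glula*, called higher, went from a mean of 846 to 1685 CPM. *apoeb*, the other large part, had means of 951 and 996 CPM and was not called. *slc1a1* and the EAAT5 genes *slc1a7a* and *slc1a7b*, the latter pair known from retina, had log2 fold changes between 0.12 and 0.49 and overlapping genotypes. The remaining slc1 genes exchange neutral amino acids. *slc1a5*, a glutamine exchanger, fell from 9.12, 13.5 and 14.7 CPM to 4.23, 7.44 and 3.68 CPM (log2 fold change −1.27, standard error 0.31, adjusted p = 0.0351), while *slc1a4* gave a log2 fold change of 0.77 and was called by DESeq2 and edgeR's exact test but not by the quasi-likelihood test (adjusted p = 0.0694).

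**Figure D4:**
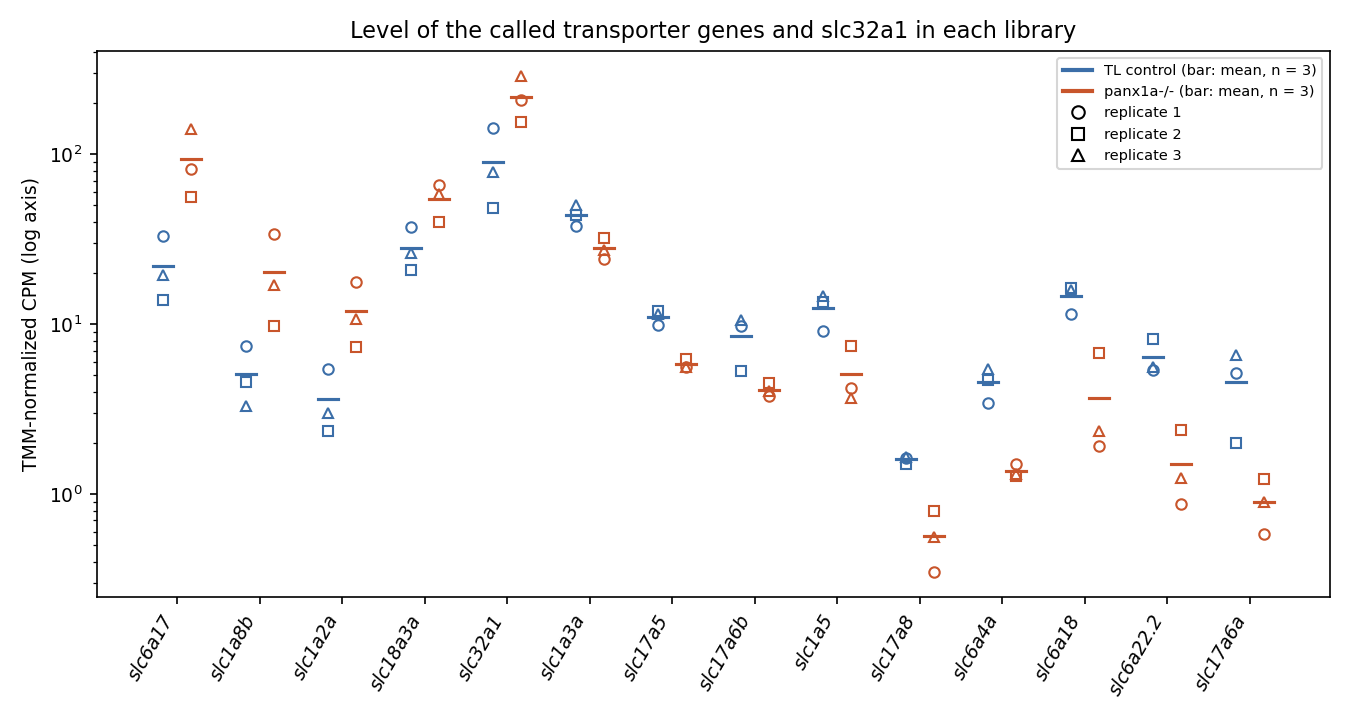
TMM-normalized CPM (log axis) of 13 called transporter genes and *slc32a1* in each library, with replicates as symbols and the mean of 3 libraries as a bar. The genotypes do not overlap for any gene shown, as was so for 2752 of the 2770 genes called among all genes tested. TL replicate 1 lies close to *panx1a*-/- replicate 2 for *slc18a3a* (37.2 and 40.2 CPM) and *slc32a1* (144 and 155 CPM).

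Among monoamine uptake genes, the serotonin transporter gene *slc6a4a* had the smallest adjusted p of all transporter genes. It fell from 3.44, 4.72 and 5.47 CPM in the TL controls to 1.51, 1.28 and 1.32 CPM in *panx1a*-/- larvae (log2 fold change −1.73, standard error 0.28, adjusted p = 0.0262). It was covered by 63 to 106 reads per TL library and 19 to 26 per *panx1a*-/- library, and the *panx1a*-/- libraries lay close together. In the RefSeq annotation of the GRCz12tu assembly, *slc6a4a* overlaps *blmh*, a protease gene with a log2 fold change of −0.85 that was not called (adjusted p = 0.0607). The strand setting of the counting is not given in the sources used here, so their reads may not be told apart. The study also reported the dopamine transporter gene *slc6a3* as upregulated in mutants by RT-qPCR, a rise not seen in these counts. Here *slc6a3* stood at 3.93, 1.69 and 2.74 CPM and at 2.72, 1.97 and 1.67 CPM. Its genotypes overlapped (log2 fold change −0.39, standard error 0.36, adjusted p = 0.418).

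Enzymes of monoamine synthesis and breakdown were also examined. Of 11 tested genes of that list, 4 were called, all higher, where 9.88% of all genes tested were called higher. The median log2 fold change over the list was 0.12. *tph2*, which makes serotonin in neurons, rose from 7.53 ± 2.30 to 14.1 ± 1.89 CPM (SD, n = 3 each; log2 fold change 0.90, adjusted p = 0.0410). *th*, the rate-limiting enzyme of dopamine synthesis, rose from 3.49 ± 0.251 to 6.50 ± 0.295 CPM (SD, n = 3 each; log2 fold change 0.89, adjusted p = 0.0319). The study's RT-qPCR likewise reported *th* as upregulated. The pterin cofactor gene *gch2* and the monoamine oxidase gene *mao* were the other 2 (log2 fold change 0.89 and 0.74, adjusted p = 0.0451 and 0.0493). Within a library, *slc6a4a* had 0.341, 0.830 and 0.803 reads per read of *tph2* in the TL controls and 0.0925, 0.0980 and 0.102 in *panx1a*-/- larvae. For *slc6a3* per read of *th*, the ratios were 1.07, 0.528 and 0.757 against 0.405, 0.319 and 0.253. Both sets of ratios were separate between genotypes, as most other carrier to enzyme ratios formed here also were. These and the other carrier to enzyme ratios were chosen after the values were seen and were not tested.

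*gad1b* and *gad2*, which make GABA, had log2 fold changes of 0.88 and 1.01 without a call in edgeR's quasi-likelihood test (adjusted p = 0.0712 and 0.0639), and reads of *slc32a1* per read of *gad2* were 0.691, 0.557 and 0.564 in the TL controls and 0.735, 0.703 and 0.785 in *panx1a*-/- larvae. Of the 6 tested genes of the GABA list, this test called 1, the GABA breakdown gene *aldh5a1*, which was lower (log2 fold change −1.53, adjusted p = 0.0284). DESeq2 called 3 of the 6, 2 higher and 1 lower. *chata*, which makes acetylcholine, gave a log2 fold change of −0.19 (adjusted p = 0.413) where *slc18a3a* rose, and the reads of *slc18a3a* per read of *chata* went from 2.45, 1.52 and 2.09 to 4.73, 3.62 and 5.17. Glutamine synthetase *glula*, a glial gene that takes part in glutamate recycling, was the 1 call among 7 glutamate and glutamine enzymes (log2 fold change 0.99, adjusted p = 0.0335). It is also 1 of the 2 glial markers called higher. Reads of *slc1a2a* per read of *glula* overlapped between genotypes, at 0.00535, 0.00333 and 0.00370 in the TL controls against 0.0109, 0.00516 and 0.00535. For *slc1a2b* the ratio to *glula* was separate and lower in *panx1a*-/- larvae, at 0.527, 0.402 and 0.593 against 0.375, 0.323 and 0.348.

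Of 6 tested amino acid carrier genes of the slc6 family, 1 was called higher and 1 lower. Over all genes tested the shares were 9.88% and 11.8%. Direction did not follow tissue. *slc6a15*, of brain in mammals, had a log2 fold change of −0.96 and the intestinal *slc6a19a.1* had 1.72. Neither was called by edgeR's quasi-likelihood test. *slc6a17*, which in mammals fills synaptic vesicles with neutral amino acids, had the largest rise of the transporter genes. It went from 32.9, 14 and 19.6 CPM to 82.5, 56.3 and 141 CPM (log2 fold change 2.07, standard error 0.42, adjusted p = 0.0298), a 4.21-fold higher level. The synaptic vesicle gene *vamp2*, of the neuron marker list, gave a log2 fold change of 2.20 (adjusted p = 0.0302). *slc6a18*, known from kidney tubule in mammals, fell from 11.5, 16.4 and 15.8 CPM to 1.91, 6.80 and 2.36 CPM (log2 fold change −1.97, standard error 0.46, adjusted p = 0.0336). The kidney marker list had no called gene among 5 tested in edgeR's quasi-likelihood test, with 2 at an unadjusted p below 0.05 and 2 called by DESeq2, in each case 1 higher and 1 lower, and its summed level was 112 to 174 CPM in the TL controls and 92.5 to 125 CPM in *panx1a*-/- larvae.

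The intestinal neutral amino acid carrier genes *slc6a19a.1* and *slc6a19b* had changes of opposite sign, neither of them called by edgeR's quasi-likelihood test. *slc6a19a.1* stood at 0.983, 3.63 and 1.34 CPM against 5.28, 2.28 and 12 CPM (log2 fold change 1.72, standard error 0.69, adjusted p = 0.0978), and *slc6a19b* at 20.2 ± 9.60 against 12.1 ± 4.60 CPM (SD, n = 3 each; adjusted p = 0.199). *slc6a19a.1* was called higher by DESeq2 (adjusted p = 0.0228) and by edgeR's exact test (adjusted p = 0.0474), but not by limma-voom (adjusted p = 0.124). All 9 enterocyte markers had a log2 fold change below 0. In edgeR's quasi-likelihood test 0 of them were called, with 4 at an unadjusted p below 0.05, and DESeq2 called 3. The summed level was 814 to 1906 CPM against 296 to 782 CPM. *slc6a15*, a neutral amino acid carrier of brain in mammals, and *slc6a16b* had log2 fold changes of −0.96 and −0.72 without a call.

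Taurine and creatine carriers were all below 0 and not called. *slc6a6a* stood at 2.24, 0.786 and 2.89 CPM against 0.754, 0.850 and 0.973 CPM (log2 fold change −1.21, standard error 0.48, adjusted p = 0.0912), with TL replicate 2 inside the *panx1a*-/- range. *slc6a6b* and the creatine carrier gene *slc6a8* had log2 fold changes of −0.54 and −0.38. *slc17a5*, which exports sialic acid from lysosomes, fell from 9.83, 12 and 11.5 CPM to 5.57, 6.22 and 5.63 CPM (log2 fold change −0.93, standard error 0.18, adjusted p = 0.0279), with little spread in either genotype. *slc6a22.2*, whose substrate was not assigned here, fell from 5.35, 8.22 and 5.63 CPM to 0.870, 2.39 and 1.25 CPM (log2 fold change −2.07, standard error 0.39, adjusted p = 0.0279). Its paralog *slc6a22.1* gave a log2 fold change of −0.36 and was not called (adjusted p = 0.251).

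Because zebrafish keep duplicate copies of many of these genes, paralogs were also compared within each library, which does not depend on scaling between libraries. Of 8 pairs, 4 had shares that did not overlap between genotypes, a count close to the 47.5% of single genes whose levels did not overlap. For *slc6a22.1* within its pair the shares were 55.0%, 52.1% and 56.0% against 86.0%, 68.1% and 85.2%, and the mean log2 ratio differed by 1.80. *slc17a6a* took 34.7%, 27.3% and 38.3% of the VGLUT2 reads against 13.3%, 21.3% and 18.3%, a difference of −1.21. *slc1a2a* was a small part of the EAAT2 reads, with 0.620% to 1.01% against 1.51% to 2.82% (difference 1.25). *slc6a4a* held 92.9% to 96.4% of the serotonin transporter reads against 74.3% to 88.9%, although *slc6a4b* had at most 9 reads (difference −1.86). Each of the 4 had p = 0.1 in a two-sided exact permutation test, the smallest that 3 libraries against 3 allow, and an adjusted p of 0.2 over the 8 pairs. The shares of the *slc1a3*, *slc1a7*, *slc6a6* and *slc18a3* pairs overlapped. Reads without a unique alignment, 11.9% to 21.3% of each library's total, were assigned to no gene by the authors' counting. Where copies are near-identical, reads of both may be lost in this way, so single paralog values are uncertain to that extent.

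**Figure D5:**
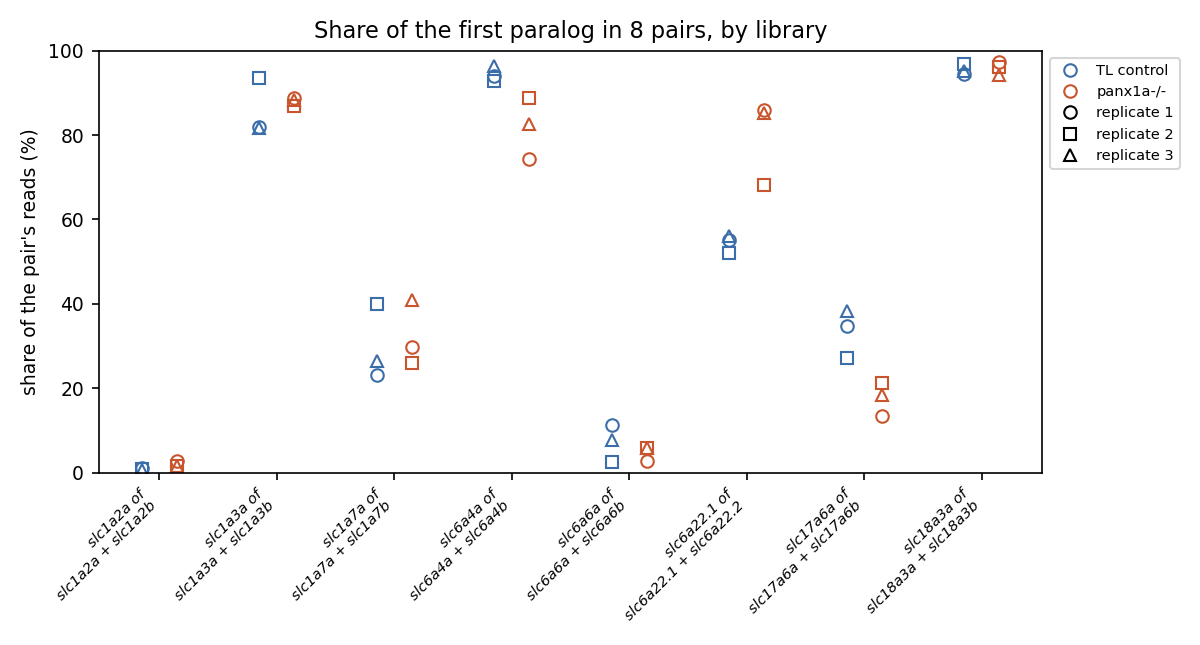
Share of the first paralog in the reads of each of 8 pairs (y axis, percent; x axis, pairs), with 1 symbol per library and replicates as symbol shapes. For *slc6a22.1* the TL controls lie between 52.1% and 56.0% and the *panx1a*-/- libraries between 68.1% and 86.0%, while 4 pairs overlap.

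The calls depended on which libraries were used. In edgeR's quasi-likelihood test without *panx1a*-/- replicate 2, 7 transporter genes were called higher and 10 lower, and without TL replicate 1, 6 higher and 9 lower. Over all genes, the same fits called 3658 of 12951 and 4708 of 12923 genes tested. Without TL replicate 2, 0 transporter genes were called higher and 2 lower, the VGLUT2 genes *slc17a6a* and *slc17a6b*, with 142 calls over all genes. Without TL replicate 3, *panx1a*-/- replicate 1 or *panx1a*-/- replicate 3, 0 of the 39 genes were called. In these fits, 15, 19 and 17 of them had an unadjusted p below 0.05. Only 3, 19 and 4 genes were called over all genes, so the loss of calls was not particular to the transporter genes. The share of all genes at that unadjusted p is not given for these fits, and with all 6 libraries it was 43.7%. The 3 counts at that p are therefore no result about the transporter genes. All 14 genes called with the full set kept their direction in each of these 6 fits. The levels of all 14 were fully separate between genotypes, so leaving out 1 library could hardly reverse a direction. The kept direction is therefore no test of the calls.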

How the data were processed

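RNA of 6 libraries, 3 from TL control and 3 from *panx1a*-/- larvae, was prepared with a directional kit and sequenced by the authors. Per the submitters' notes, bcl2fastq 2.17, FastQC 0.11.2, Trim Galore 0.4.4, TopHat2 2.0.11 and HTSeq 0.6.1p2 were used with the danRer11 build. The annotation and the strand setting of the counting are not given in the sources used here. The authors deposited raw counts per gene, 1 file per library, without normalization. Of each file, 5 summary rows that name no gene were kept out of library sizes and tests. They include the reads outside annotated genes, whose share is given in the report. Where neighbouring genes overlap, counting without strand could assign reads to either or neither.

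Counts were tested with edgeR 4.0.16 in R 4.3.3 (default expression filter, TMM factors, robust quasi-likelihood fit, genotype as the only term), with Benjamini-Hochberg adjustment over the 12797 genes tested and a threshold of 0.05. Apart from members not reported here, genes described in full were those called, those with an absolute log2 fold change of at least 1, all vesicular transporter genes and the 2 genes that the study measured by RT-qPCR. Values of further members were added after all values were seen, and the overlapping neighbour *blmh* was also chosen then. Some members, 1 called gene among them, are in the counts over the set only. The transporter set, the marker lists and the enzyme lists were chosen with earlier results of these data known. Paralog ratios used 0.5 added to each count. Gene names and overlaps were looked up in RefSeq tables of the GRCz12tu assembly, in which all 42 genes matched. Overlaps rest on the coordinates of that assembly and may differ in the danRer11 build used for the counts. Scripts were tested on simulated data. Alternatives were DESeq2 1.42.0, edgeR's exact test, limma-voom (limma 3.58.1), other scaling factors and filters, the replicate number as a block, the share of reads outside genes as a covariate, and leaving out each library in turn. Figures were drawn with matplotlib 3.10.9. No sequences were printed, and the RT-qPCR was not analysed here.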

Additional observations from a re-analysis of the deposited data

How the results depend on the processing

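The main counts were 5 transporter genes called higher, 9 lower and 2770 calls over all genes. DESeq2 called 8 transporter genes higher, as did edgeR's exact test, with 4018 and 3941 calls over all genes. With limma-voom, 5 were called higher and 8 lower, with 2786 calls over all genes. Scaling by library size only gave 4 transporter genes lower and 1633 calls in all, and it moved the median log2 fold change of all genes by 0.23, while upper-quartile factors moved it by −0.11. The share of calls that were higher was 45.6% with TMM, 62.8% by library size only and 31.2% with upper-quartile factors. The share of reads outside genes as a covariate left 0 higher, 0 lower and 1 call over all genes. Leaving out 1 library gave 0 to 7 higher, 0 to 10 lower and 3 to 4708 calls in all.

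The labels do not say that replicate numbers pair, so they were not taken as pairs in the main test. Deviations from the genotype mean had correlations of 0.115, 0.319 and 0.0649 between same-numbered libraries. Between libraries of different number the correlations ran from −0.24 to 0.171. The replicate block gave 6 higher and 10 lower transporter genes and 3882 calls in all, with all 5 higher and all 9 lower calls kept and *slc32a1* (adjusted p = 0.0190) and *slc1a6* added.

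Some changes reversed sign, and the cause was not tested. With the covariate, 13 of the 14 called genes kept their direction. Values are given for the genes reported here. By library size only, the log2 fold change was 0.18 for *slc17a7a* and 0.17 for *slc17a9b*. With the covariate it was 0.21 for *slc17a7a*, 1.05 for *slc17a9b*, −1.09 for *slc18a3b* and −0.32 for *slc32a1*. Without TL replicate 3 it was 0.23 for *slc17a7a* and 0.11 for *slc17a9b*. It was 0.19 for *slc17a7a* without *panx1a*-/- replicate 2, and 0.17 and 0.15 for *slc17a9b* without *panx1a*-/- replicates 1 and 3. Over the fits without 1 library, *slc17a7a* ranged from −0.36 to 0.23 and *slc17a9b* from −0.61 to 0.17. For *slc32a1* the adjusted p ran from 0.00999 to 0.999 over the alternatives. The 4 paralog differences kept their sign with a pseudocount of 1 and without each library, alternatives chosen after seeing the data. These 4 pairs were those without overlap between genotypes, so leaving out 1 library could not reverse their sign. The overlapping pairs were not put through these alternatives. Genes with few counts, such as *slc18a2*, limit what these libraries can show.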
